A study of Mus musculus with 11 samples.

Results

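The vacuolar ATPase (V-ATPase) is the proton pump that acidifies lysosomes, endosomes and synaptic vesicles. Its cytosolic V1 sector hydrolyses ATP and turns a rotor, and its membrane V0 sector carries protons across the membrane. In neurons the pump also provides the proton gradient that loads transmitters into synaptic vesicles. Counts of 10 genes, 9 genes of V1 subunits and Atp6ap2, were described gene by gene in cortices of 5xFAD mice with and without Abi3, with Atp6v1a set against the other subunits. The 10 genes were taken by symbol from the 53700 genes counted, and they were chosen by their levels in the comparison of Abi3 genotypes reported below. The values of these genes between genotypes are therefore a description. Calls of the fit across all genes are counted for them below as part of that description, not as tests of a difference.

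Total RNA of cerebral cortex from female 8-month-old mice was sequenced from the 3′ ends of polyadenylated transcripts, with 1 library per animal. The 6 Abi3+/+ mice (5xFAD; Abi3 wildtype) and the 5 Abi3-/- mice (5xFAD; Abi3 knockout) all carried the 5xFAD transgenes, human genes with mutations of familial Alzheimer's disease, which are driven by the neuronal Thy1 promoter. The labels give the strain as C57BL/6, and the study's methods describe a cross of the B6SJL 5xFAD line with a C57BL/6N null allele of Abi3, in which the analysed mice were also heterozygous for the Trem2 variant of the SJL background. No animals without the transgenes were included, so that every value describes a brain with amyloid, in 1 sex and at 1 age.

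Libraries held 3202310 to 5501958 reads in genes. Abi3 itself had 10 to 38 raw counts in Abi3+/+ and 0 to 2 in Abi3-/- libraries. Reads outside annotated genes numbered 59.3 to 68.8 per 100 reads in genes in Abi3+/+ and 49.8 to 62.5 in Abi3-/- libraries, a lower mean in Abi3-/- (54.0 against 65.9, exact permutation test over the 462 splits, two-sided p = 0.0065). Of the Abi3-/- libraries only replicate 4 reached into the Abi3+/+ range. Markers of choroid plexus summed to 63.0 to 172 normalized counts in 8 libraries, and to 1912 to 3531 in the other 3, Abi3+/+ replicate 4 and Abi3-/- replicates 1 and 5. Fewer cells of a type and less RNA per cell cannot be told apart in such bulk tissue.

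All 10 genes had a mean above that of Abi3+/+ cortices in Abi3-/- cortices. Atp6v1a had the largest log2 fold change, 0.45 (SE 0.095), and Atp6v1h the smallest, 0.11 (SE 0.11). The median of the 10 was 0.25, and the median over the 6487 genes that were given an adjusted p was 0.03. In the DESeq2 fit across all genes, 3 of the 10 were called higher in Abi3-/- at an adjusted p of 0.05 or less: Atp6v1a, Atp6v1g2 and Atp6ap2. Of all 17626 genes tested, 60 (0.34%) were called higher, as were 0.925% of the 6487 genes given an adjusted p. Because the genes were chosen in this contrast, nothing is read from these counts. In 1 gene, Atp6ap2, every Abi3-/- animal lay above every Abi3+/+ animal, a separation that 1.08% of the 6487 genes had. The genes lay on 9 chromosomes, and none on chromosome 11 with Abi3.

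**Figure D1:**
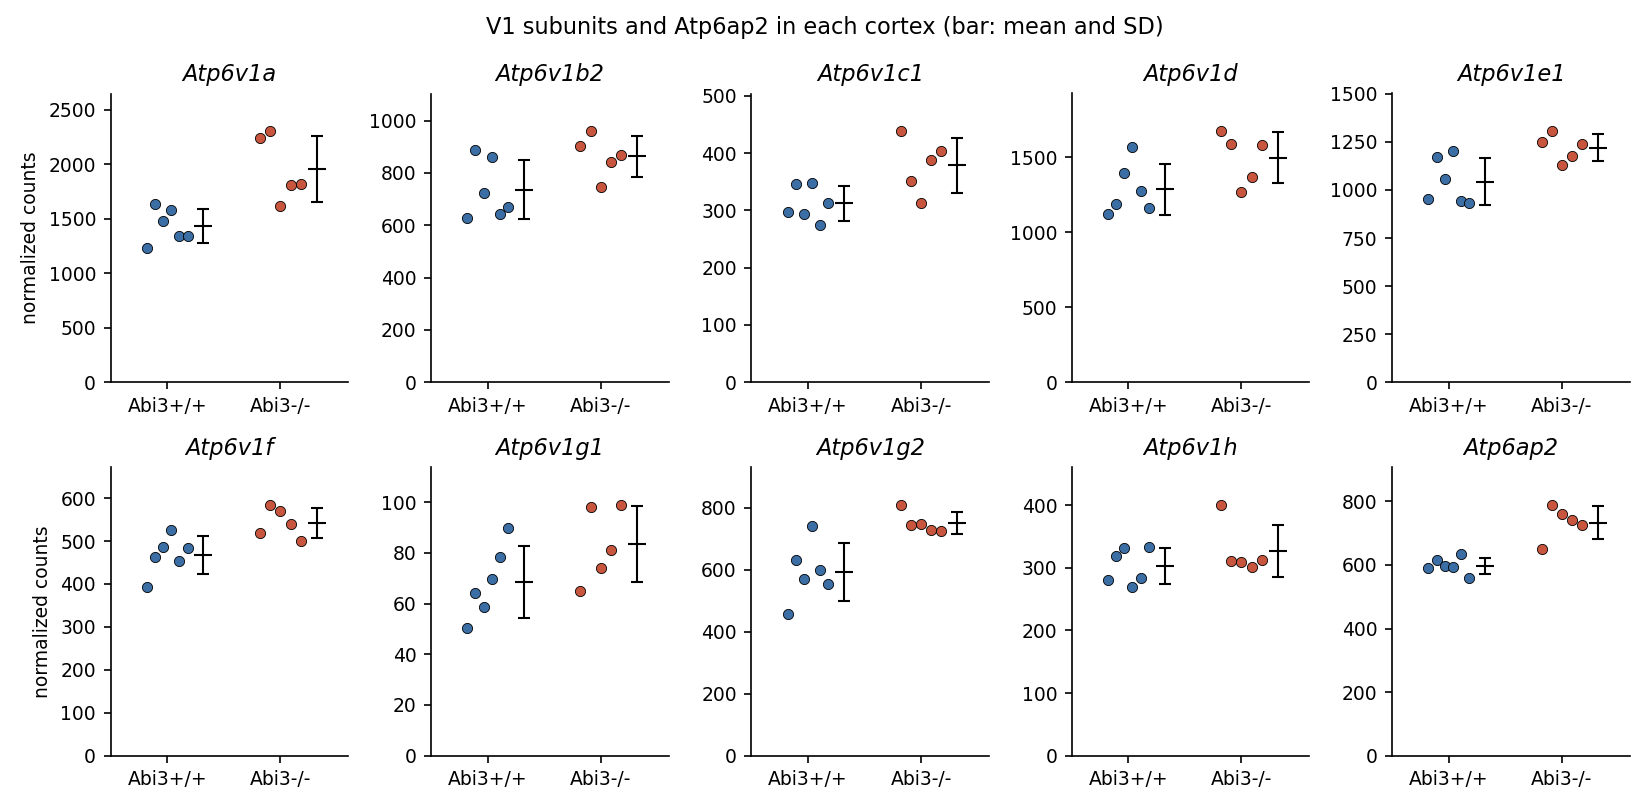
Normalized counts (vertical axis, counts divided by the library's size factor) of each gene in the 6 Abi3+/+ and 5 Abi3-/- cortices, 1 point per animal, with mean and SD beside the points. Atp6ap2 was the gene without overlap, and in Atp6v1h a single Abi3-/- animal, at 401, stood above the rest.

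The A and B subunits form the ring of V1 in which ATP is bound, and the A subunit hydrolyses it. Atp6v1a encodes subunit A (chromosome 16, 43887852 to 43960076, minus strand, GRCm39). Its normalized counts ran from 1229 through a median of 1411 to 1638 in Abi3+/+ cortices, and were 2241, 2305, 1616, 1807 and 1822 in the 5 Abi3-/- cortices. Of the 5 Abi3-/- animals, 4 lay above every Abi3+/+ animal, and the lowest of them, replicate 3, lay below the highest Abi3+/+ animal. The means were 1435 ± 158 (SD, n = 6) and 1958 ± 299 (SD, n = 5), a 1.36-fold ratio. Leaving out any 1 animal kept the log2 fold change between 0.38 and 0.51. Atp6v1b2 encodes the B subunit isoform of brain (chromosome 8, 69541297 to 69566369, plus strand). It had 736 ± 113 (SD, n = 6) normalized counts in Abi3+/+ and 864 ± 79.0 (SD, n = 5) in Abi3-/- cortices, and its log2 fold change was 0.23 (SE 0.10). Its ranges overlapped, with 2 Abi3-/- animals above all Abi3+/+ animals.

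The central stalk, which turns inside the ring, includes the D and F subunits. Atp6v1d (chromosome 12, 78871407 to 78909126, minus strand) had 1285 ± 169 (SD, n = 6) normalized counts in Abi3+/+ and 1495 ± 170 (SD, n = 5) in Abi3-/- cortices. Atp6v1f (chromosome 6, 29467717 to 29470513, plus strand) had 468 ± 44.1 (SD, n = 6) and 543 ± 35.3 (SD, n = 5). The log2 fold changes of these rotor genes were close, 0.22 (SE 0.092) for Atp6v1d and 0.21 (SE 0.087) for Atp6v1f, and in each the groups overlapped. A copy of Atp6v1f on chromosome 17, annotated as the processed pseudogene Gm9349, matched the last 500 bases of its transcript at 98.2%, so that reads may have been split between them or left uncounted. Gm9349 held 1 count in all libraries together.

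The E and G subunits form the stalks that hold the ring still. Atp6v1e1 (chromosome 6, 120768646 to 120799807, minus strand) had 1044 ± 122 (SD, n = 6) normalized counts in Abi3+/+ and 1220 ± 68.9 (SD, n = 5) in Abi3-/- cortices, and its log2 fold change was 0.22 (SE 0.081). Atp6v1g2 encodes the G isoform enriched in neurons (chromosome 17, 35452636 to 35457766, plus strand). It ran from 458 through a median of 585 to 740 normalized counts in Abi3+/+ cortices, and was at 811, 743, 747, 730 and 726 in Abi3-/- cortices. The Abi3-/- values were close together, with 3 above every Abi3+/+ animal and the others at the upper end of the wide Abi3+/+ range. Only Abi3+/+ replicate 4 reached into the Abi3-/- range. The log2 fold change was 0.34 (SE 0.098), and the call was lost when any animal other than Abi3+/+ replicate 2 or 4 was left out, with log2 fold changes of 0.28 to 0.35 in those 9 fits. It was also lost with edgeR and with limma, and held in 5 of all 21 alternatives. Atp6v1g1 encodes the widely expressed G isoform (chromosome 4, 63462886 to 63471651, plus strand). It was the least counted gene, with normalized counts of 68.5 ± 14.2 (SD, n = 6) and 83.5 ± 14.9 (SD, n = 5), and its log2 fold change of 0.28 had a 95% interval from -0.11 to 0.67. Its transcript end matched 3 other places in the genome at 95% identity or more, the closest at 98.2% over 455 bases, and its counts are uncertain for that reason.

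Subunit C links the stalks to V0 and leaves the pump when V1 detaches, and subunit H keeps detached V1 from hydrolysing ATP. Atp6v1c1 (chromosome 15, 38645103 to 38697011, plus strand) had 312 ± 29.9 (SD, n = 6) normalized counts in Abi3+/+ and 379 ± 48.4 (SD, n = 5) in Abi3-/- cortices, and its log2 fold change was 0.28 (SE 0.11). Of the Abi3-/- animals, 4 lay above all Abi3+/+ animals. Atp6v1h (chromosome 1, 5089010 to 5234940, plus strand) ran from 269 through 302 to 333 normalized counts in Abi3+/+ cortices, and was at 401, 311, 309, 302 and 313 in Abi3-/- cortices. The other 4 Abi3-/- values lay inside the Abi3+/+ range, and without Abi3-/- replicate 1 the log2 fold change was 0.03.

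Atp6ap2, the (pro)renin receptor, is a membrane protein that helps to assemble V0 and remains bound to the pump (chromosome X, 12453960 to 12495037, plus strand). It ran from 558 through a median of 596 to 634 normalized counts in Abi3+/+ cortices, and was at 649, 790, 759, 742 and 726 in Abi3-/- cortices. The groups did not overlap, and 15.4 normalized counts separated the lowest Abi3-/- animal, replicate 1, from the highest Abi3+/+ animal. The log2 fold change was 0.29 (SE 0.074), with group means of 598 ± 25.6 (SD, n = 6) and 733 ± 52.6 (SD, n = 5). Its spread among Abi3+/+ animals, a coefficient of variation of 4.28%, was the smallest of the 10. The call was lost without Abi3+/+ replicate 1, without Abi3+/+ replicate 6 and without Abi3-/- replicate 2, where the log2 fold changes were 0.29, 0.27 and 0.26. It was also lost with edgeR, with limma, with the replicate block and with reads outside genes as a covariate, and held in 14 of all 21 alternatives.

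Atp6v1a was then set against the other V1 subunits within each animal, a ratio that does not depend on the library's scaling. Atp6v1a held 22.7%, 24.4%, 23.1%, 22.0%, 22.8% and 22.8% of the summed V1 counts in Abi3+/+ replicates 1 to 6, and 27.0%, 27.9%, 23.9%, 25.0% and 24.1% in Abi3-/- replicates 1 to 5. The share was above the Abi3+/+ mean of 23.0% in each Abi3-/- animal, and 1 Abi3+/+ animal, replicate 2, lay inside the Abi3-/- range. On the log2 scale the ratio of Atp6v1a to the sum of the other 8 was -1.75 ± 0.063 (SD, n = 6) in Abi3+/+ and -1.54 ± 0.14 (SD, n = 5) in Abi3-/- cortices, a difference of 0.20. Without any 1 animal this difference lay between 0.16 and 0.24. The other 8 subunits together summed to 4808 ± 494 (SD, n = 6) in Abi3+/+ and 5662 ± 372 (SD, n = 5) in Abi3-/- cortices, a 1.18-fold ratio of normalized counts.

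**Figure D2:**
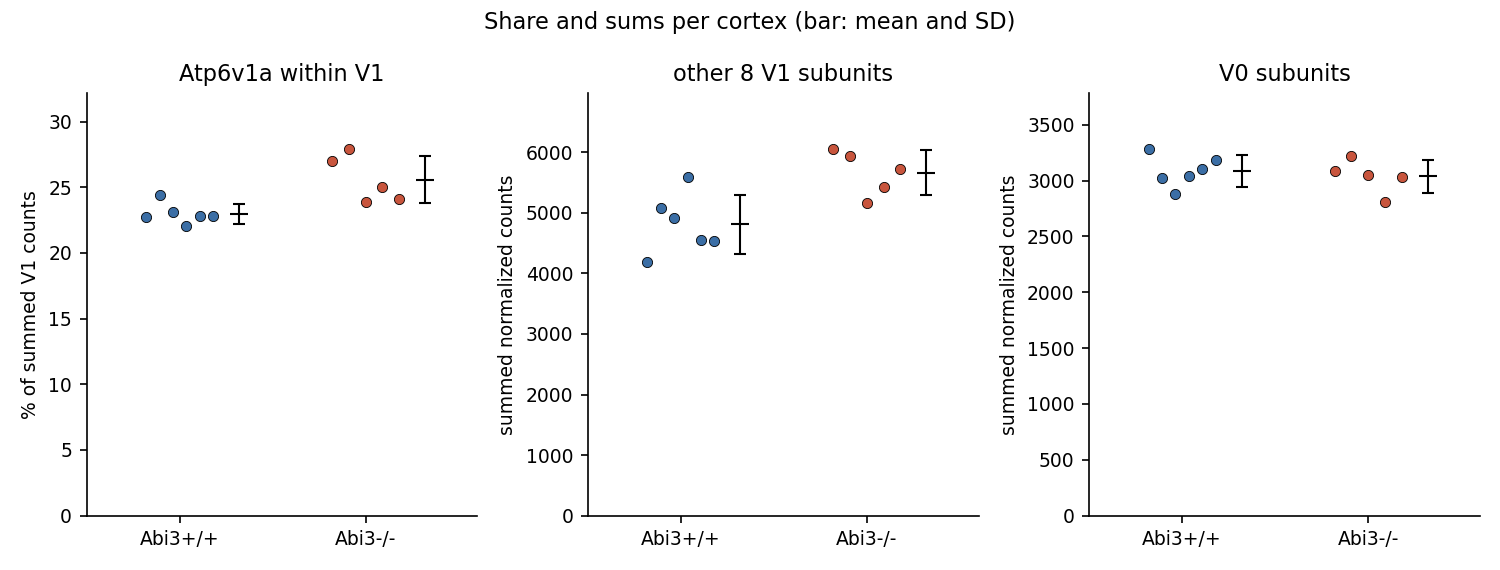
Share of Atp6v1a in the summed V1 counts (left, percent), summed normalized counts of the other 8 V1 subunits (middle) and of V0 subunits without Atp6v0c and Rnasek (right), 1 point per cortex with mean and SD. The share averaged 23.0% in Abi3+/+ and 25.6% in Abi3-/- cortices, and the V0 sums, 2879 to 3287 and 2805 to 3218, covered the same range.

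Among Abi3+/+ cortices, mean normalized counts ran, from high to low, in the order Atp6v1a, Atp6v1d, Atp6v1e1, Atp6v1b2, Atp6ap2, Atp6v1g2, Atp6v1f, Atp6v1c1, Atp6v1h and Atp6v1g1, from 1435 to 68.5. Libraries made from 3′ ends give about as many reads for a short as for a long transcript, so these counts were not divided by length. Neighbours in this order were ranked alike in 6 of 6 animals except for Atp6ap2 and Atp6v1g2 (4 of 6) and for Atp6v1c1 and Atp6v1h (3 of 6), which did not differ beyond their spread. The isoforms of V1 subunits known mainly from kidney, testis and other tissues were scarcely counted. Atp6v1b1, Atp6v1e2 and Atp6v1g3 had 1, 0 and 6 raw counts over all 11 libraries, and Atp6v1c2 had 82.

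The genes of the V0 sector and of its accessory protein Atp6ap1 lay on both sides of 0. Of the 12 genes of this list 9 were tested, and DESeq2 called 0, as did edgeR and limma, with 0 at an unadjusted p under 0.05 in DESeq2. Over all genes tested, 0.539% were called and 8.58% had an unadjusted p under 0.05, in either direction. The median log2 fold change of the 9 was -0.05, with 4 above and 5 below 0. These include Atp6v0c (-0.95), whose count is not a level. The 7 given an adjusted p, which leave it out, had a median of -0.05, with 3 above 0. Atp6v0a1, the neuronal isoform of the a subunit along which protons pass, averaged 1097 ± 65.9 (SD, n = 6) and 1051 ± 67.1 (SD, n = 5), and its log2 fold change of -0.06 had a 95% interval from -0.19 to 0.07. Atp6v0d1, which joins the rotor to the V0 ring, had 0.18 (-0.04 to 0.40), and Atp6v0e had -0.22 (-0.54 to 0.10). Atp6v0a2, the isoform of the Golgi, had -0.18 (-0.46 to 0.09), and Atp6ap1 had 0.13 (-0.03 to 0.28). Summed over the V0 subunits other than Atp6v0c and Rnasek, counts were 3085 ± 141 (SD, n = 6) in Abi3+/+ and 3039 ± 149 (SD, n = 5) in Abi3-/- cortices (exact permutation test over 462 splits, two-sided p = 0.59). Atp6v0c, the main subunit of the proton-carrying ring, had 47 raw counts over all libraries, and a sequence on chromosome 6 was identical to the last 500 bases of its transcript. Rnasek had 3, and its exons are shared with another annotated gene on the same strand, so that neither of these counts is a level.

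**Figure D3:**
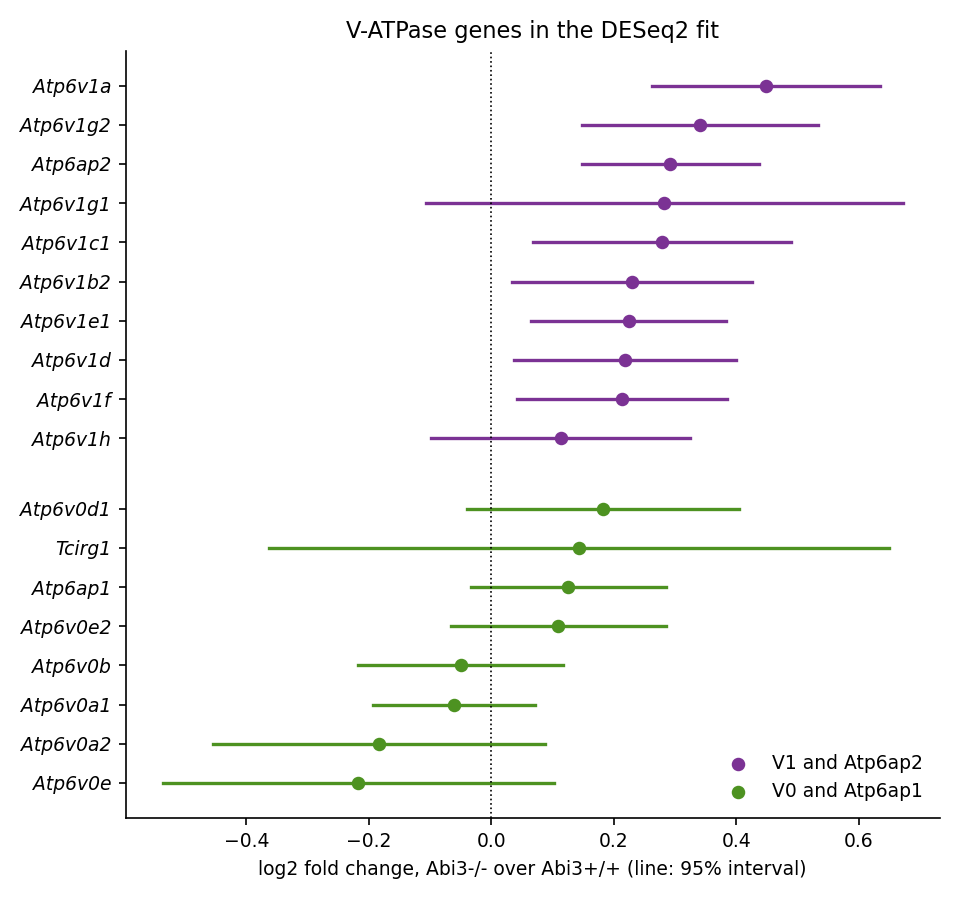
Log2 fold changes, Abi3-/- over Abi3+/+, of the 9 V1 subunits and Atp6ap2 (purple) and of V0 subunits and Atp6ap1 (green), points with 95% intervals from the DESeq2 fit. The purple points run from 0.11 to 0.45, and the green points lie on both sides of 0.

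Promoters of these genes were searched for the E-box CACGTG and for the longer palindrome TCACGTGA, the core of the CLEAR element found before many lysosomal genes, which contains the E-box. Both read the same on either strand. In the RefSeq table of 250 bases before to 50 after each start (GRCm38.p6), 6 of the 10 genes were present, Atp6v1a, Atp6v1d, Atp6v1e1, Atp6v1f, Atp6v1g2 and Atp6ap2. Not matched were Atp6v1b2, Atp6v1c1, Atp6v1g1 and Atp6v1h. In Atp6v1a 1 site, 132 bases before the start, held both motifs, and no other of the 6 held either. Of all 27025 genes in the table, 8.09% held the E-box and 1.12% the longer core. The 250 bases before the start of Atp6v1a (chr16:44139260-44139509, minus strand) are shown because Atp6v1a had the largest difference, with the core in capitals.
Atp6v1a: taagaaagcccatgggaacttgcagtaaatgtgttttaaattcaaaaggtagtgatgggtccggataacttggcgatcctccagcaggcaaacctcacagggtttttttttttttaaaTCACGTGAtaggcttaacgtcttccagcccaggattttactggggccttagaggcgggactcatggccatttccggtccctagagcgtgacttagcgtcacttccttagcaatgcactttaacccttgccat
Among the V0 list 9 of 12 genes were matched, and 3 held an E-box, of which Atp6v0d1 and Atp6v0e held the longer core. Their sites, 30 bases each with the motif in capitals, are shown beside that of Atp6v1a so that the letters can be compared. The Atp6v0b stretch lies on chr4:117887348-117887377 (minus strand), the Atp6v0d1 stretch on chr8:105566050-105566079 (minus strand) and the Atp6v0e stretch on chr17:26676387-26676416 (plus strand). They lie 36 bases before the start, across the start and just after it, and the Atp6v0b promoter held a further E-box, 18 bases before the start.
Atp6v1a: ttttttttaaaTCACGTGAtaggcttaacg
Atp6v0b: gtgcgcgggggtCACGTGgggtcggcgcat
Atp6v0d1: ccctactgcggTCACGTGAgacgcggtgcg
Atp6v0e: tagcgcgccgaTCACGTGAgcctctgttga
The same 8 letters thus stood in the promoter of Atp6v1a, with a log2 fold change of 0.45, and in those of Atp6v0d1 and Atp6v0e, with 0.18 and -0.22. The motif was absent from the windows of Atp6v1g2 and Atp6ap2, which were called. A match is a run of letters in this window and was not tested as a binding site.

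Lists of genes around the pump were described next. Of 13 genes for assembly and regulation, 12 were tested and 0 called by DESeq2, edgeR or limma, with 1 at an unadjusted p under 0.05. That gene was Ncoa7, a TLDc-domain protein that binds the pump, with a log2 fold change of 0.19 (SE 0.091, adjusted p = 0.38). Dmxl2 and Wdr7, which form the complex that rejoins V1 to V0, had 0.11 (-0.08 to 0.29) and 0.17 (-0.06 to 0.40), and Dmxl1 had -0.16 (-0.37 to 0.05). Oxr1, another TLDc protein, had 0.14 (-0.04 to 0.31). Of 17 genes of nutrient sensing at the lysosome, all 17 were tested and 0 called by any of the 3 tools, with 1 at an unadjusted p under 0.05 and a median of 0.01. Rraga, a GTPase that recruits mTORC1 to lysosomes, was that gene, at 0.39 (SE 0.14, adjusted p = 0.16). Flcn, a regulator of the Rag GTPases, had 0.36 (-0.06 to 0.78), Rheb had 0.25 (-0.07 to 0.57) and Rptor -0.24 (-0.60 to 0.11). Tfeb, whose protein binds the CLEAR element, had 1 to 28 raw counts per library, and its relatives Tfe3 and Mitf had log2 fold changes of -0.02 (-0.46 to 0.42) and -0.06 (-0.47 to 0.35).

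Transporters that use the proton gradient, or that share the vesicle membrane with the pump, included 1 called gene among 19 tested of 20, and 3 at an unadjusted p under 0.05, all higher in Abi3-/-, where 8.58% of all genes tested passed the latter in either direction. Slc30a3 encodes the zinc transporter of glutamatergic synaptic vesicles. It ran from 293 to 403 normalized counts in Abi3+/+ and from 366 to 555 in Abi3-/- cortices, and its log2 fold change was 0.48 (SE 0.12, adjusted p = 0.0076). The groups overlapped. The call was lost with limma, without Abi3-/- replicate 2 and without the libraries rich in choroid plexus markers, and with reads outside genes as a covariate the log2 fold change was -0.057. Sv2b, a synaptic vesicle glycoprotein, had 0.34 (SE 0.11, adjusted p = 0.11), and Syp, the vesicle protein synaptophysin, had 0.25 (SE 0.086, adjusted p = 0.13). Sv2b passed in 2 and Syp in 1 of the 11 fits without 1 animal. The lysosomal channel Tmem175 had 0.40 (-0.02 to 0.81), and the chloride-proton exchanger Clcn3 had 0.12 (-0.01 to 0.25). The main vesicular glutamate transporter of cortex, Slc17a7, had 0.12 (-0.08 to 0.32), and the GABA transporter of vesicles, Slc32a1, had -0.25 (-0.57 to 0.08). The median of the 19 was 0.12.

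The summed neuron markers were also higher in Abi3-/- cortices. The 9 neuron markers summed to 23837 to 26451 normalized counts in Abi3+/+ and 27388 to 31072 in Abi3-/- cortices, without overlap, and 8 of the 9 had log2 fold changes above 0. Thy1, whose promoter drives the transgenes, was the 1 marker called (log2 fold change 0.59, SE 0.063). Without Thy1 the sums were 20207 to 22729 and 22214 to 24541, which overlapped. Per 1000 counts of the neuron markers other than Thy1, the 10 genes together had 291 to 363 normalized counts in Abi3+/+ and 334 to 403 in Abi3-/- cortices, and their mean log2 difference was 0.19, against 0.29 for the normalized counts alone. On this scale, chosen after seeing the data, the difference was 0.34 for Atp6v1a, 0.25 for Atp6v1g2, 0.19 for Atp6ap2 and 0.0047 for Atp6v1h. The part of neuronal content in the differences was not tested.

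Other marker sums overlapped between genotypes, and no gene of these lists was called. They were 13175 to 15454 in Abi3+/+ and 13377 to 16941 in Abi3-/- for 5 excitatory neuron markers, 1614 to 1862 and 1350 to 1890 for 6 inhibitory neuron markers, and 1620 to 2605 and 1469 to 2332 for 6 striatal neuron markers. Glial sums were 11348 to 13210 and 11628 to 12866 for 6 astrocyte markers, 1691 to 2339 and 1873 to 2612 for 8 microglia markers, 7453 to 10262 and 8158 to 11300 for 6 oligodendrocyte markers, and 354 to 468 and 301 to 527 for 3 markers of their precursors. Endothelial markers, 5 genes, summed to 619 to 886 and 742 to 848, and 5 choroid plexus markers to 63.0 to 3531 and 86.9 to 2306. Log2 fold changes were above 0 for 4 of 5 excitatory, 3 of 6 inhibitory and 0 of 6 striatal neuron markers. They were above 0 for 1 of 6 astrocyte, 7 of 8 microglia, 6 of 6 oligodendrocyte and 2 of 3 precursor markers. Of endothelial and choroid plexus markers, 2 of 5 and 3 of 5 were above 0. No marker was at 0 in every library. Without the 3 libraries rich in choroid plexus markers, Atp6v1a, Atp6v1g2 and Atp6ap2 were again the called members, with log2 fold changes of 0.44, 0.39 and 0.35, and Atp6v1h was at -0.01.

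The number of reads outside genes moved with genotype as well. With it as a covariate 0 of the 10 members was called by DESeq2, and 0 was at an unadjusted p under 0.05, of 3 genes called in all. The log2 fold change of Atp6v1a was then 0.26 (SE 0.17, against 0.095 without the covariate), of Atp6v1d 0.03 and of Atp6v1h -0.03, while those of Atp6v1c1 and Atp6v1g2 were 0.37 and 0.33. Within the 6 Abi3+/+ cortices, where genotype did not vary, the log2 sum of the 10 genes had a Pearson's r of -0.18 with reads outside genes (exact permutation p = 0.75) and a Spearman's rho of -0.14 (exact permutation p = 0.80). Without the 2 animals farthest from the median r was -0.40. The reads outside genes of Abi3-/- replicate 4, 62.5 per 100, lay inside the Abi3+/+ range. Of the 10 genes, 8, 9, 3, 4 and 6 lay above all Abi3+/+ animals in Abi3-/- replicates 1 to 5. The rest lay inside the Abi3+/+ range. Replicate 3, with the fewest above, had 53.7 reads outside genes per 100. No such share over all genes is given, and nothing is read from these counts. What part the reads outside genes had in the differences was not tested further.

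**Figure D4:**
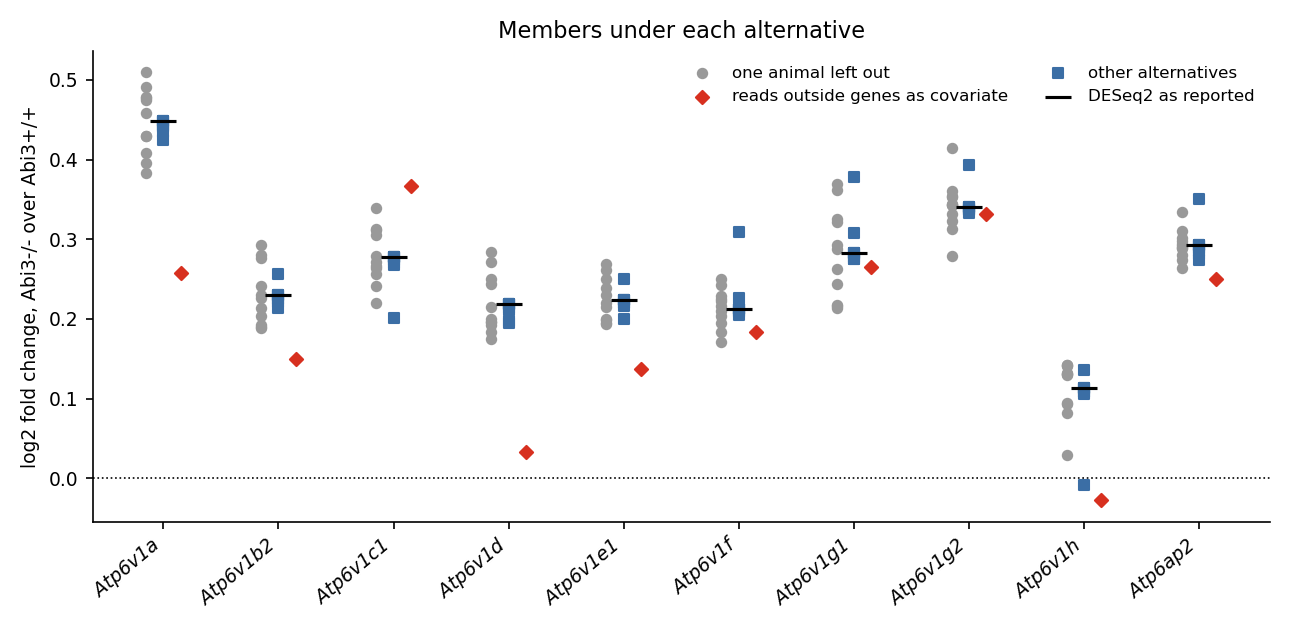
Log2 fold change of each gene (vertical axis, Abi3-/- over Abi3+/+) as reported and under each alternative, with fits without 1 animal in grey, the fit with reads outside genes as covariate in red and other alternatives in blue. Values stayed above 0 for 9 of 10 genes, and Atp6v1h was at -0.03 with the covariate and at -0.01 without the libraries rich in choroid plexus markers.

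Variation among animals of 1 genotype does not depend on the contrast by which the genes were chosen. Each gene was therefore related, over the 6 Abi3+/+ cortices, to the summed counts of the other 9 on the log2 scale. Of the 10 relations tested, 4 passed with Pearson's r after Benjamini-Hochberg adjustment and 0 with Spearman's rho. No share over all genes is given for this relation, so the 4 are not read as particular to the pump. Atp6v1a had r = 0.92 (exact permutation p = 0.015, adjusted 0.042) and rho = 0.94 (exact permutation p = 0.017, adjusted 0.083). Atp6v1b2, Atp6v1e1 and Atp6v1g2 had r of 0.89 each (exact permutation p = 0.014, 0.017 and 0.013, adjusted 0.042 each) and rho of 0.89, 0.83 and 0.94 (exact permutation p = 0.033, 0.058 and 0.017, adjusted 0.11, 0.15 and 0.083). Without the 2 animals farthest from the median, r was 0.97 for Atp6v1a, 0.88 for Atp6v1b2, 0.99 for Atp6v1e1 and 0.61 for Atp6v1g2. Atp6v1f had r = 0.78 (exact permutation p = 0.056, adjusted 0.11), which became -0.07 without those animals and so rested on them. Atp6v1c1 and Atp6v1d had r of 0.68 and 0.63 (exact permutation p = 0.14 and 0.18, adjusted 0.24 and 0.26) and rho of 0.54 and 0.71 (exact permutation p = 0.30 and 0.14, adjusted 0.42 and 0.23). Atp6ap2, Atp6v1g1 and Atp6v1h had r of 0.19, 0.10 and -0.08 (exact permutation p = 0.74, 0.85 and 0.87, adjusted 0.87 each) and rho of 0.43, 0.086 and -0.26 (exact permutation p = 0.42, 0.92 and 0.66, adjusted 0.52, 0.92 and 0.73). Without the 2 animals farthest from the median, r became 0.58 for Atp6v1c1 and 0.89 for Atp6v1d. It became 0.27 for Atp6ap2, -0.86 for Atp6v1g1 and 0.21 for Atp6v1h.

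**Figure D5:**
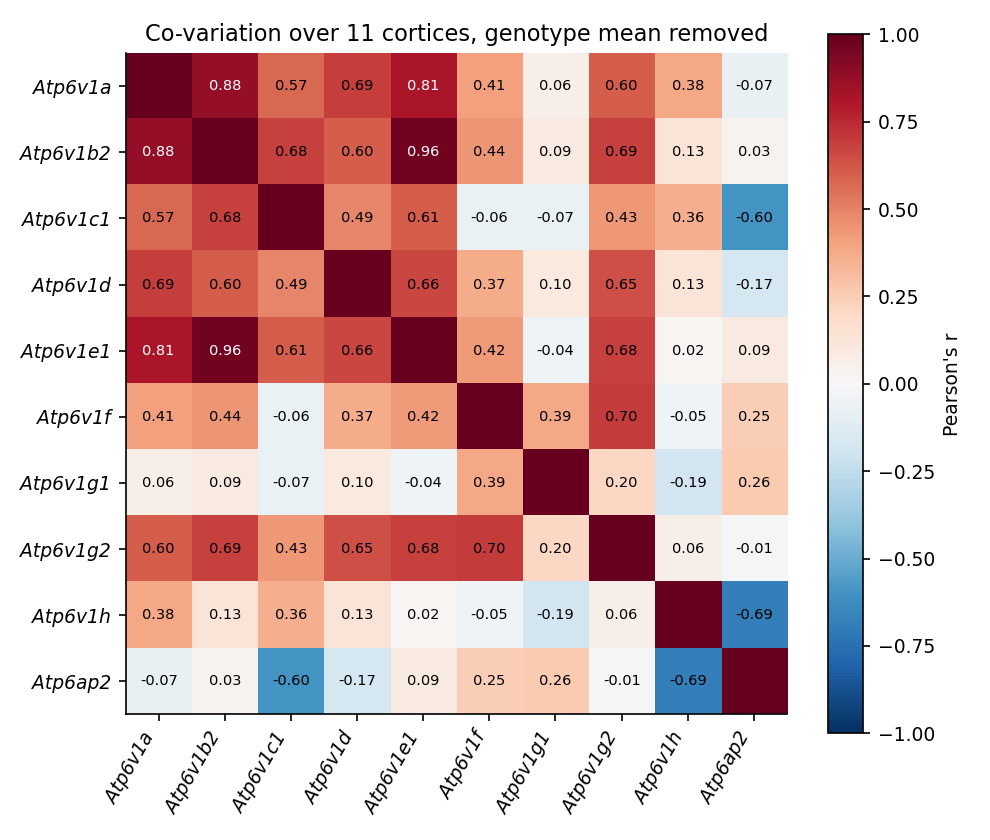
Pearson's r between each pair of genes over the 11 cortices after removal of each genotype's mean (log2 of normalized count plus 1). Atp6v1a, Atp6v1b2, Atp6v1d, Atp6v1e1 and Atp6v1g2 form a red block, led by Atp6v1b2 with Atp6v1e1 at 0.96, and Atp6ap2 with Atp6v1h is lowest at -0.69.

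Over all 11 cortices, with the mean of each genotype removed, 35 of the 45 pairs of members had an r above 0, and the median r was 0.36. Over the 12982060 pairs of genes whose normalized counts averaged 100 or more, the median was 0.01. Atp6v1b2 and Atp6v1e1 were the closest pair (r = 0.96), and Atp6v1a was closest to Atp6v1b2 (r = 0.88) and Atp6v1e1 (r = 0.81). The isoforms Atp6v1g1 and Atp6v1g2 had an r of 0.20. Atp6ap2 had r values of -0.60 with Atp6v1c1 and -0.69 with Atp6v1h, the lowest pair. All points share their libraries, and these values are given as a description.

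Among the 5087 other genes at that level, those most like Atp6v1a over the 11 cortices were Napb (r = 0.94), a SNARE disassembly factor, Ssb (0.93), the RNA-binding La protein, Slc25a22 (0.92), a mitochondrial glutamate carrier, Sh3gl2 (0.91), the synaptic protein endophilin A1, and Btaf1 (0.90), a regulator of the TATA-binding protein. Their log2 fold changes between genotypes were 0.28, 0.07, 0.15, 0.23 and -0.12, and 0 of these 5 was called by DESeq2. Among those most like the mean of the other 8 V1 subunits were Pgm2l1 (r = 0.94), a glucose phosphate enzyme, Mprip (0.92), a myosin phosphatase partner, Rapgefl1 (0.90) and Igsf3 (0.90). Of these, Pgm2l1 was called higher in Abi3-/- cortices, with a log2 fold change of 0.38, and the other 3 had -0.01, -0.05 and 0.02.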

How the data were processed

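Per the labels, RNA was extracted from cortex and 3′ libraries were prepared with the QuantSeq forward kit. The authors trimmed reads, aligned them with STAR 2.7.3a to GRCm39 and counted them per gene and strand with HTSeq 0.9.1, and deposited raw counts for each animal. Reads placed at several positions were tallied apart and belong to no gene. Of the 53700 gene IDs, 52610 (98.0%) were matched to symbols of GENCODE.

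As in the study, DESeq2 1.42.0 (R 4.3.3) was fitted, with genotype as the term, to genes whose counts summed to 10 or more. Genes whose normalized counts averaged 1.5 or more were kept, and an adjusted p of 0.05 or less was a call, with independent filtering (threshold 70.4). The same fit was also run on simulated counts, whose means and dispersions came from the fit to these data. Alternatives used edgeR 4.0.16, limma 3.58.1, other filters and scalings, covariates and fewer animals. Transcript ends were searched in the genome with BLAST 2.17.0. Permutation tests were exact and two-sided. The smallest p for a correlation over 6 animals was 0.0028.

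The members and the lists were chosen with earlier results of these data known. Outside the members, the genes named from each list are those called and up to 4 more with the smallest unadjusted p among genes averaging 10 or more normalized counts. Named besides by role, after their values were seen, are Atp6v0a1, Dmxl2, Slc17a7, Slc32a1, Tfeb, Tfe3, Mitf, and the genes with few counts. Lists covered V0, other V1 isoforms, assembly, nutrient sensing, transporters and markers of cell types. Replicate numbers 1 to 5 occur in both genotypes, and the labels tie no animals together by them. The 95% intervals come from the SE of the DESeq2 fit. They give the uncertainty of the difference between group means, not the range of animals. Of the genes most like the members over animals, 1 is not reported here.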

Additional observations from a re-analysis of the deposited data

Results flagged for a closer look

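In 58 sets of values, 1 genotype of 1 gene or ratio each, 3 held an animal far from the others, where chance gives about 1 in 20, or 2.9. Atp6v1h in Abi3-/- replicate 1 was at 401 normalized counts, and the next animal was at 313. The gap was 0.885 of the range of the 5 animals, above the critical 0.71 for this number. Atp6v1g2 in the same animal was at 811 normalized counts, with the next at 747 (0.7495 of the range). Atp6ap1, of the V0 list, was lowest in Abi3-/- replicate 4 at 595 normalized counts, with the next at 673 (0.718 of the range). Without Abi3-/- replicate 1, the log2 fold changes of Atp6v1h and Atp6v1g2 were 0.03 and 0.31.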

How the results depend on the processing

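Atp6v1a was called in 20 of 21 alternatives, Atp6ap2 in 14 and Atp6v1g2 in 5. The number of genes called was 95 as reported, 37 with edgeR, 21 with limma, 57 with independent filtering off, 33 with the replicate block, 3 with reads outside genes as covariate, 28 without the libraries rich in choroid plexus markers (an alternative chosen after seeing the data) and 45 to 120 without 1 animal. Of 10 members, 3 were called as reported, 1 with edgeR, with limma and with the replicate block, 0 with the covariate and 1 to 5 without 1 animal. Without Abi3+/+ replicate 4 the call of Atp6v1d and Atp6v1e1 was added, and without Abi3+/+ replicate 2 that of Atp6v1e1. V0 genes called numbered 0 throughout. Of the other lists 1 gene was called as reported, 2 with the replicate block, 0 with limma, with the covariate and without the libraries rich in choroid plexus markers, and 0 to 3 without 1 animal. The direction turned with the covariate for Atp6v1h (-0.028), Atp6v0d1 (-0.055), Atp6v0a2 (0.13), Rptor (0.16) and Slc30a3 (-0.057), and without the choroid-rich libraries for Atp6v1h (-0.0088). The cause was not tested. The difference in the Atp6v1a ratio was 0.20 under the replicate block and 0.16 to 0.24 without 1 animal, and the median r of the members in Abi3+/+ was 0.73, and 0.61 to 0.88 without 1 animal. Same-numbered animals deviated with a mean correlation of 0.02 (-0.005 to 0.07), against -0.005 for other pairs. Of 10 animals, 4 correlated best with their own number. This was not tested, and 5 pairs cannot tell whether same-numbered animals share more than a number. TMM factors shifted the median gene by -0.007.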
